A study of Homo sapiens with 6 samples.

Results

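The proteasome is the ATP-dependent protease that degrades proteins tagged with ubiquitin. Its 20S core is a barrel of PSMA (alpha) and PSMB (beta) subunits, and 3 of the beta subunits carry the catalytic threonine. The 19S particle caps the barrel, recognises ubiquitin chains, removes them and threads the substrate in. Its PSMC subunits are the ATPases. Most PSMD genes encode other parts of it, and PSMD5, PSMD9 and PSMD10 encode chaperones of its assembly. PSME proteins are alternative caps, PSMF1 is a regulator first described as an inhibitor, and PSMG proteins are chaperones that help assemble the barrel. Cells adjust the genes of these subunits together, mainly through the transcription factor NFE2L1, and tumour cell lines rely on a steady supply of them.

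The proteasome subunit genes were taken by name, as every row whose symbol was PSM, a letter from A to G and a number. This gave 48 of the 58302 rows of the table. They were 19 of the 20S core, 20 of the 19S particle and its assembly chaperones, and 9 activators, inhibitor and 20S assembly chaperones. The series measured total RNA of MHCC97H, a human hepatocellular carcinoma line, with 3 libraries from cells of a non-target control line and 3 from a DDX17 knockout line (DDX17_KO), DDX17 being an RNA helicase gene. Both lines were made with CRISPR/Cas9 and grew in DMEM with serum and antibiotics. No label says whether either line is 1 clone or whether the libraries came from separate cultures. A p-value therefore sets the group difference against the spread between libraries of a group, which may be technical. The values are FPKM, fragments per kilobase of transcript scaled to library depth, which allows levels of different genes to be compared per length.

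Estimated depths ran from 12310000 to 14520000 fragments in controls and from 5340000, in replicate 2, to 10600000 in DDX17_KO. DDX17 RNA averaged 43.7 ± 2.11 FPKM over the controls and 16.4 ± 7.76 FPKM over DDX17_KO (n = 3 a group, SD), with every DDX17_KO library below every control. Its log2 fold change was -1.48 (limma adjusted p 0.282), and the two-sided exact permutation p was 0.1, the smallest that 3 against 3 libraries allow. The limma test ran on log2(FPKM + 1) over 15620 genes that averaged 0.5 FPKM or more, with Benjamini-Hochberg adjustment and a threshold of 0.05, and it called 6 genes, all lower. Of 6 epithelial and line markers, KRT8, KRT18 and VIM had means above 1 FPKM. The other 3, KRT19, EPCAM and CDH1, had means of 0.141, 0.0672 and 0.064 FPKM. All 8 hepatocyte markers, ALB and AFP among them, also lay below 1 FPKM. Red cell markers summed to 54.6 to 69.9 FPKM in the controls and to 0.652 FPKM or less in DDX17_KO. Fibroblast markers summed to 34.5 to 43.1 FPKM in the controls and 39.9 to 87.6 FPKM in DDX17_KO; of these COL3A1 was higher in every DDX17_KO library, up to 79.8 FPKM in replicate 1, while COL1A1 and PDGFRB were lower in every one. Leukocyte markers summed to 1.39 to 1.91 and 2.26 to 3.62 FPKM, most of it CD68 and with CD3E at 0, and endothelial markers to 0.562 to 0.752 and 0.225 to 0.498 FPKM. The part of these markers in the proteasome values was not tested. In bulk RNA, fewer cells of a type and less RNA per cell cannot be told apart.

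No proteasome gene passed the threshold. Of the 48 members, 44 reached the 0.5 FPKM filter; 0 were called higher and 0 lower by limma, against 0.0384% of all tested genes called lower. At an unadjusted p under 0.05 there were also 0 members, where 13.5% of all tested genes lay below that value. The groups did not overlap in 3 members that were lower in DDX17_KO, PSMA3, PSMG1 and PSMG2, against 12.6% of all tested genes, and in 1 that was higher, PSMB3, against 8.09%, in all 4 of 44 members against 20.7% of genes. The fold changes nevertheless leaned to 1 side: 32 of 44 lay below 0, 72.7%, against 52.5% of all tested genes. The median log2 fold change was -0.17, against -0.03 over all tested genes. With each library corrected for transcript GC content and length, 28 of 44 members lay below 0, 63.6%, against 48.7% of all genes. The 95% intervals of single members reached together from -1.12 at their lowest to 1.47 at their highest, which is how large a difference these libraries leave possible for the most variable genes.

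**Figure D1:**
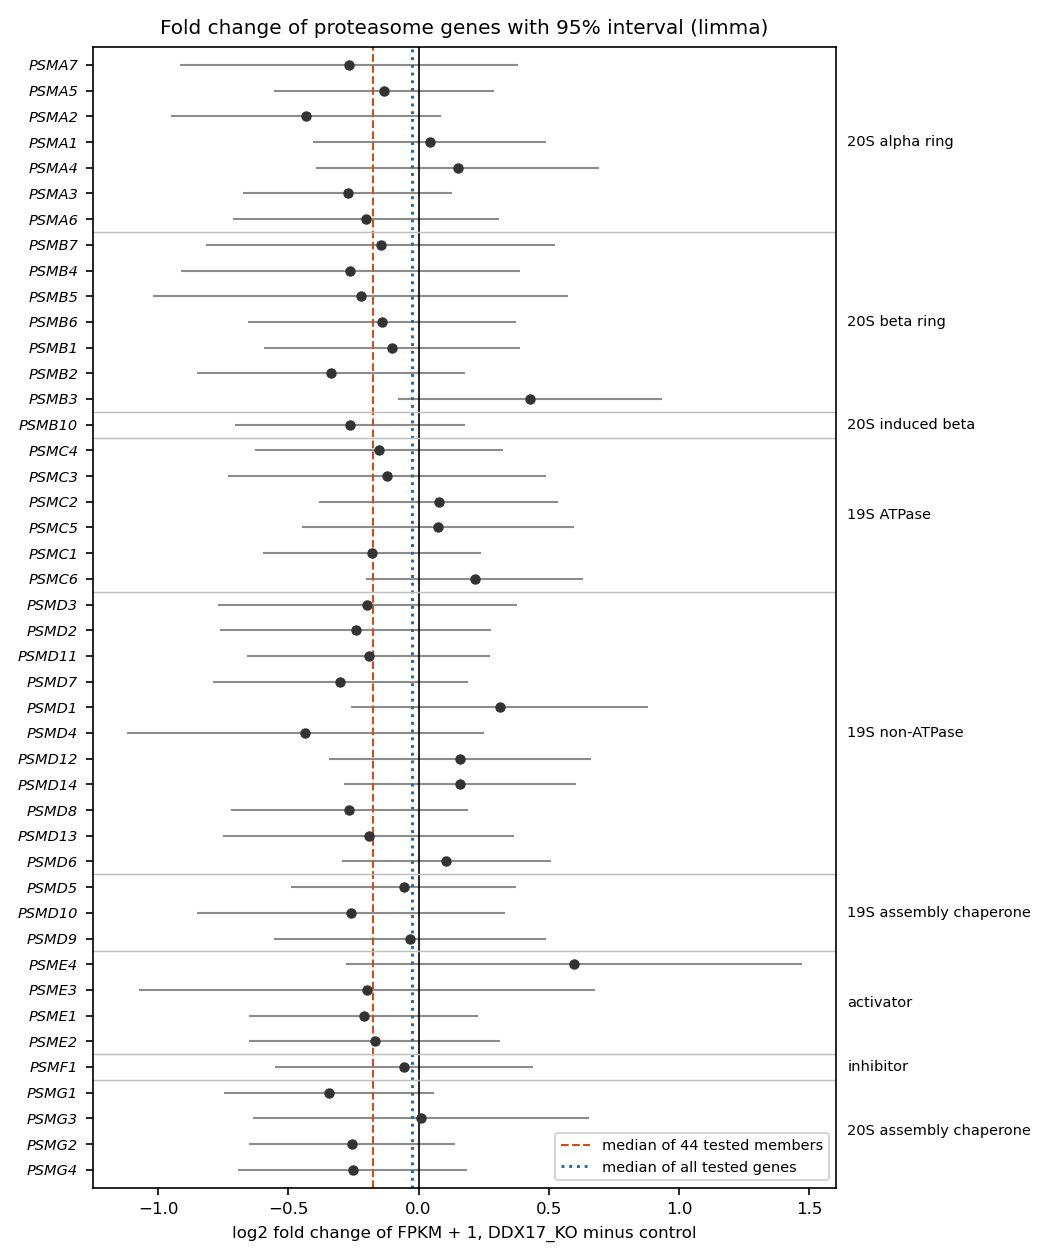
Log2 fold change of each of the 44 tested proteasome genes, DDX17_KO minus control on the log2(FPKM + 1) scale, with 95% limma intervals and grouped by role. Every interval includes 0; the dashed line is the members' median of -0.17 and the dotted line that of all tested genes, -0.03.

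The stretch before the start site is shown for the 4 members whose groups did not overlap and for PSME4, which had the highest fold change on the log2(FPKM + 1) scale. The sequences come from the 250 bases upstream of the RefSeq start on GRCh38.p14, on the gene's strand, with each match to TGACNNNGC on either strand in capitals. For PSMA3 and PSMB3, bases within an exon of GENCODE release 29 are left out, which leaves 238 bases of PSMA3 and 245 of PSMB3. The windows of PSMG1, PSMG2 and PSME4 lie wholly or largely in exons, of PSMG1, of PSMG2 and of the neighbouring gene ACYP2. For these only the 29 bases around the match are printed, which in PSMG1 and PSME4 are exon bases. These letters are the core of the antioxidant response element, the kind of site that NFE2L1 binds.
PSMA3 (chr14:58244593-58244830, plus strand): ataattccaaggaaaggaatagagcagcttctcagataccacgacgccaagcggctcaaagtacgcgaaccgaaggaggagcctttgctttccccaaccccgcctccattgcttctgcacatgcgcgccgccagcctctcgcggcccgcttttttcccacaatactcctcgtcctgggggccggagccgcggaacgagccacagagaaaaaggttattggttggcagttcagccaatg
PSMB3 (chr17:38752491-38752735, plus strand): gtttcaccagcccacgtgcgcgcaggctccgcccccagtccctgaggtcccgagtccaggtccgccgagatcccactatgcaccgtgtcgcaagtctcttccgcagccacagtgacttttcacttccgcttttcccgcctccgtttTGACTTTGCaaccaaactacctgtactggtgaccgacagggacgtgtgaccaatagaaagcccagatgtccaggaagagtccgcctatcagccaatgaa
PSMG1 (chr21:39183616-39183644, minus strand): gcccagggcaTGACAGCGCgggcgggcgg
PSMG2 (chr18:12658689-12658717, plus strand): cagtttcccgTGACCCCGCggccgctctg
PSME4 (chr2:53971009-53971037, minus strand): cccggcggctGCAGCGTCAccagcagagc
PSMB3, PSMG1, PSMG2 and PSME4 each held 1 match and PSMA3 held none. The match lay 104 bases before the RefSeq start in PSMB3, 183 in PSMG1, 39 in PSMG2 and 34 in PSME4. The RefSeq start need not be that of the gene in the table. The windows of PSMG1 and PSMG2 lie inside the loci listed for these genes, and that of PSME4 lies outside its locus. The bases just after the RefSeq start of PSME4 were in no transcript of it in GENCODE release 29. RefSeq gives PSMG2 another start, whose window held no match. Promoters of 42 members were matched by symbol, in 51 windows, and 13 of these windows, 25.5%, held the core, against 10.9% of all 35116 RefSeq windows of this length. The GC box GGGCGG stood in 60.8% of the members' windows against 42.6% of all, and CCAAT in 37.3% against 32.0%. Of the 10 motifs searched on both strands, the ETS element CCGGAAGT stood in 11.8% against 3.42%, the nuclear respiratory factor palindrome in 1.96% against 1.03% and TGACGT in 7.84% against 7.1%. TGACGTCA, TGACTCAGC, the YY1 element and the heat shock unit GAANNTTC were in no window of a member, against 1.65%, 0.456%, 0.373% and 5.78% of all windows. TGACGT lies within TGACGTCA, and TGACTCAGC is one form of TGACNNNGC. The genes with a match lay on both sides of 0, PSMB3 and PSME4 above and PSMG1 and PSMG2 below, and a match of letters does not show a bound site.

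Most alpha ring genes, which form the outer rings and the gate of the barrel, were expressed within a narrow range. The means of 6 of the 7 alpha genes over all libraries lay between 11.6 FPKM for PSMA6 and 19.1 FPKM for PSMA5, and PSMA7 stood apart at 61.8 FPKM. PSMA7 had 59.7, 78.8 and 61.2 FPKM in control replicates 1, 2 and 3 and 43.6, 81.6 and 45.9 FPKM in DDX17_KO replicates 1, 2 and 3. Its replicate 2 was the highest library in both groups, and DDX17_KO replicate 2 exceeded every control, so the groups overlapped (log2 fold change -0.27, limma adjusted p 0.624). PSMA2 had 27.6, 18.98 and 18.1 FPKM in the controls and 14.03, 18.1 and 14.5 FPKM in DDX17_KO. Control replicate 1 was the highest library and DDX17_KO replicate 2 lay just above the lowest control (log2 fold change -0.43, 95% interval -0.95 to 0.09, limma adjusted p 0.397). PSMA3 (ENSG00000100567, hg38 chromosome 14, 58244831 to 58272012) had 15.4, 15.6 and 12.9 FPKM in the controls and 11.2, 12.5 and 12.03 FPKM in DDX17_KO. Every DDX17_KO library lay below every control, by little between the nearest libraries (log2 fold change -0.27, standard error 0.17, limma adjusted p 0.452). PSMA3 overlaps its antisense transcript PSMA3-AS1, PSMA2 overlaps MRPL32, and no source used here states that counting used strand. PSMA6 overlaps the coding gene AL121594.3 on the same strand, which had a mean of 9.24 FPKM. By class, 5 of 7 alpha genes lay below 0, with a median of -0.20. PSMA8, the alpha subunit of the testis, was listed at 0 in all 6 libraries.

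The beta ring holds the 3 protease activities, and the genes of all 3 were among the abundant members. PSMB5, the chymotrypsin-like subunit, had 35.0, 69.1 and 34.7 FPKM in control replicates 1, 2 and 3 and 26.1, 49.1 and 40.9 FPKM in DDX17_KO. PSMB6, the caspase-like subunit, had 37.3, 48.0 and 43.5 FPKM in the controls and 30.7, 47.8 and 39.3 FPKM in DDX17_KO. PSMB7, the trypsin-like subunit, had 53.0, 64.6 and 61.4 FPKM in the controls and 44.7, 83.6 and 41.3 FPKM in DDX17_KO. In all 3 genes replicate 2 was the highest library of each group and replicate 1 of DDX17_KO lay below every control, with overlap in between. Their log2 fold changes were -0.22, -0.14 and -0.15, with limma adjusted p of 0.748, 0.752 and 0.806. Without control replicate 2 the value of PSMB5 turned to 0.10, and PSMB7 was 0.04 without DDX17_KO replicate 3. The other beta genes PSMB1, PSMB2 and PSMB4, which have no protease activity of their own, had means of 30.2, 24.2 and 43.0 FPKM, and in all 6 of 7 beta genes lay below 0.

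PSMB3 stood apart from the other ring genes of the beta family, in the level listed and in direction. PSMB3 (ENSG00000277791, chromosome 17, 38752736 to 38764231), a beta subunit without protease activity, had 0.973, 1.26 and 1.34 FPKM in the controls and 1.41, 2.90 and 1.71 FPKM in DDX17_KO. All DDX17_KO libraries were above all controls (log2 fold change 0.43, 95% interval -0.08 to 0.94, limma adjusted p 0.395), and the value was 0.23 without DDX17_KO replicate 2. The 20S barrel holds all its beta subunits in equal number, yet the next lowest beta gene of the rings, PSMB2, had 24.2 FPKM against 1.60 FPKM for PSMB3. The coding genes nearest to it were low as well: MLLT6, CISD3, PCGF2, PIP4K2B and CWC25 did not exceed 0.6 FPKM in any library. RPL23 and LASP1, farther on but also within 150 kb, had 44.4 to 81.3 and 9.92 to 16.5 FPKM. How reads that match several places, such as alternate versions of a region in the assembly, were treated is not given in the sources used here. Its part in these values was not tested, so the listed level of PSMB3 need not be that of its RNA.

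The induced subunits replace the catalytic beta subunits when cells meet interferon, and their genes were listed at 0 or near 1 FPKM. PSMB8 and PSMB9 (chromosome 6, 32840717 to 32844703 and 32844136 to 32859585), which take the places of PSMB5 and PSMB6, were listed at 0 in all 6 libraries. So was TAP1, the peptide transporter gene that lies within the PSMB9 locus on the other strand, and TAP2 did not exceed 0.477 FPKM. BRD2, a broadly expressed gene in the same stretch, had 1.66 to 3.09 FPKM, so the 0 of PSMB8 and PSMB9 is given as listed and not as absence or low expression. The same limit on reads that match several places holds for this stretch, which has alternate versions in the assembly, and was not tested. PSMB10, which takes the place of PSMB7, lies on chromosome 16 (67934502 to 67937087). It was listed at 1.13, 1.74 and 1.15 FPKM in the controls and 0.713, 1.25 and 0.886 FPKM in DDX17_KO. DDX17_KO replicate 2 exceeded the lower controls (log2 fold change -0.26, limma adjusted p 0.499). PSMB10 made up 2.09%, 2.63% and 1.83% of the sum of PSMB7 and PSMB10 in the controls and 1.57%, 1.47% and 2.1% in DDX17_KO, with overlap through DDX17_KO replicate 3. PSMB11, the thymic subunit, did not exceed 0.0886 FPKM.

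**Figure D2:**
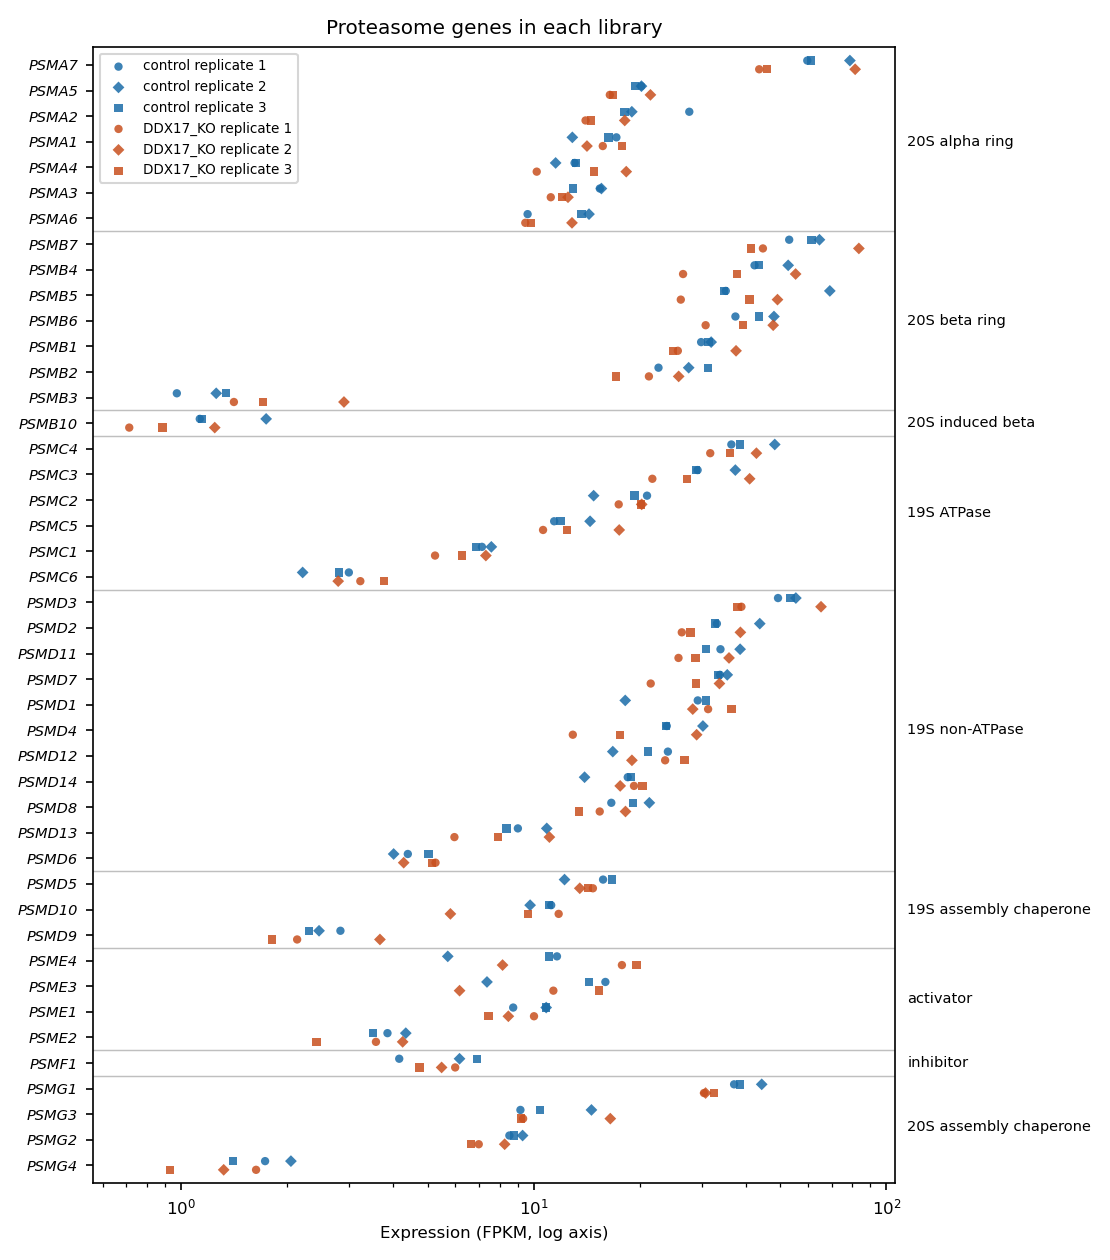
FPKM of the 44 tested proteasome genes on a log axis, 1 point per library, blue for control and orange for DDX17_KO, with circles, diamonds and squares for replicates 1, 2 and 3. The ring and 19S genes mostly lie between 10 and 60 FPKM, PSMB3 and PSMB10 near 1, and the diamonds often lie apart from the other libraries of their group.

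The 6 ATPases of the 19S base, which unfold the substrate, sit in 1 ring in equal number, but their RNA levels were spread widely. PSMC4 led with 36.35, 48.3 and 38.5 FPKM in the controls and 31.7, 42.8 and 36.0 FPKM in DDX17_KO, and PSMC6 was lowest with 2.99, 2.21 and 2.81 against 3.22, 2.79 and 3.77 FPKM. PSMC4 was highest in replicate 2 of each group and PSMC6 lowest in it, and in both genes the groups overlapped. Their log2 fold changes were -0.15 and 0.21, with limma adjusted p of 0.709 and 0.547. The other ATPase genes had means from 6.74 FPKM for PSMC1 to 30.9 FPKM for PSMC3, and the class had 3 members on each side of 0. PSMC1 has a processed copy, PSMC1P1, listed at 45.0 to 68.8 FPKM, above PSMC1 itself at 5.25 to 7.58 FPKM. PSMA6 likewise has PSMA6P1, at 7.77 to 15.1 FPKM. The division of fragments between gene and copy is uncertain for both. Of 32 rows named as proteasome pseudogenes, 4 had a mean of at least 1 FPKM.

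Among the 11 genes of the 19S particle without ATPase activity, 7 lay below 0 and 4 above, with a median of -0.19. PSMD4, a ubiquitin receptor, had 23.8, 30.2 and 23.7 FPKM in the controls and 12.9, 28.98 and 17.6 FPKM in DDX17_KO. DDX17_KO replicates 1 and 3 were below every control, and replicate 2 was above the lower controls. The log2 fold change of PSMD4 was -0.44 (95% interval -1.12 to 0.25, limma adjusted p 0.475), close to that of PSMA2, and moved between -0.18 without DDX17_KO replicate 1 and -0.74 without DDX17_KO replicate 2. PSMD14, the deubiquitinase that cuts the chain off, had 18.5, 13.9 and 18.9 FPKM in the controls and 19.3, 17.6 and 20.3 FPKM in DDX17_KO (log2 fold change 0.16, limma adjusted p 0.671). PSMD1, a large scaffold of the base, had 29.2, 18.2 and 30.8 FPKM in the controls and 31.2, 28.3 and 36.35 FPKM in DDX17_KO. For PSMD14 and PSMD1 control replicate 2 was the lowest library, and each group's replicate 2 lay below its other libraries. The log2 fold change of PSMD1 was 0.31 (limma adjusted p 0.524), and 0.08 without control replicate 2. PSMD1, PSMD14 and PSMC6 were above the control of the same number in all 3 pairs. PSMD3, a lid subunit and the most abundant of the class, had 49.3, 55.4 and 53.5 FPKM in the controls and 38.8, 65.3 and 37.9 FPKM in DDX17_KO, whose replicate 2 was above every control and whose others were below every control (log2 fold change -0.20, limma adjusted p 0.683). The 7 others, PSMD2, PSMD6, PSMD7, PSMD8, PSMD11, PSMD12 and PSMD13, had means from 4.69 FPKM for PSMD6 to 33.7 FPKM for PSMD2.

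Of the 3 members that were lower in every DDX17_KO library, 2 were assembly genes of the core. Such members were 6.82% of those tested, below the 12.6% of all tested genes. PSMG1 and PSMG2 encode a chaperone pair that guides the alpha ring. PSMG1 (ENSG00000183527, chromosome 21, 39174769 to 39183851) had 37.0, 44.3 and 38.5 FPKM in the controls and 30.4, 30.7 and 32.5 FPKM in DDX17_KO. The DDX17_KO libraries lay close together and below all controls, and the gap exceeded the spread within DDX17_KO. PSMG1 had the lowest limma adjusted p among the members, 0.393, at a log2 fold change of -0.34 (standard error 0.17, 95% interval -0.75 to 0.06). PSMG2 (ENSG00000128789, chromosome 18, 12658043 to 12725740) had 8.53, 9.30 and 8.80 FPKM in the controls and 6.99, 8.27 and 6.64 FPKM in DDX17_KO (log2 fold change -0.26, limma adjusted p 0.468). PSMG2 also lay below the controls in every DDX17_KO library, with its replicate 2 nearest to them, and its log2 fold change was -0.05 after the correction for GC content and length. PSMG2, at a mean of 8.09 FPKM, overlaps SPIRE1 and CEP76 on the other strand, at 5.11 and 1.88 FPKM. Whether counting used strand is not stated. PSMG3 and PSMG4, which encode the second chaperone pair, overlapped between the groups, at means of 11.5 and 1.51 FPKM. The 19S chaperone genes PSMD5, PSMD9 and PSMD10 overlapped too; PSMD5, the most abundant, had 15.7, 12.2 and 16.7 FPKM in the controls and 14.7, 13.5 and 14.3 FPKM in DDX17_KO.

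Among the alternative caps, PSME4 had the highest fold change, which on the log2(FPKM + 1) scale was also the highest of all members. With smaller pseudocounts of 0.1 and 0.01, or after the correction for GC content and length, PSMB3 was above PSME4, at 0.65, 0.69 and 0.57 against 0.64, 0.65 and 0.34. Single libraries changed the order too. PSMB3 was at 0.57 against 0.45 without DDX17_KO replicate 1 and at 0.45 against 0.30 without control replicate 2. PSME4, a large nuclear cap linked to the degradation of acetylated histones (ENSG00000068878, chromosome 2, 53864067 to 53970840), had 11.6, 5.71 and 11.1 FPKM in control replicates 1, 2 and 3 and 17.8, 8.16 and 19.6 FPKM in DDX17_KO. Replicate 2 was the lowest library of each group, and with the same number DDX17_KO was above control each time. With all libraries the groups overlapped, and the log2 fold change was 0.60 (95% interval -0.28 to 1.47, limma adjusted p 0.452). A fit without both libraries numbered 2 put PSME4 at 0.67 (limma adjusted p 0.0398) and called 5.51% of all tested genes higher. It was the only member called in any of 20 alternatives, in which its value ran from 0.30 without control replicate 2 to 0.96 without DDX17_KO replicate 2.

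PSME3, the nuclear cap of another family, had 15.97, 7.37 and 14.4 FPKM in the controls and 11.4, 6.16 and 15.3 FPKM in DDX17_KO, again with the lowest value of each group in replicate 2. DDX17_KO was below the control of the same number in replicates 1 and 2 and above it in replicate 3. Its log2 fold change was -0.20, and 0.13 without DDX17_KO replicate 2. The ratio of PSME4 to PSME3, chosen after the values were seen, was 0.729, 0.774 and 0.769 in the controls and 1.57, 1.32 and 1.28 in DDX17_KO, with no overlap. PSME1 and PSME2, whose products form the interferon-induced cap, had 8.75, 10.85 and 10.85 FPKM and 3.85, 4.34 and 3.50 FPKM in the controls. In DDX17_KO PSME1 had 10.0, 8.47 and 7.45 FPKM and PSME2 had 3.57, 4.25 and 2.42 FPKM, so both overlapped with the controls. Their log2 fold changes were -0.21 and -0.17, with limma adjusted p of 0.575 and 0.678. PSME2 overlaps RNF31 on the other strand, with means of 3.65 and 3.56 FPKM, and the same limit on strand holds. PSMF1 had 4.16, 6.16 and 6.91 FPKM in the controls and 5.99, 5.48 and 4.74 FPKM in DDX17_KO, with DDX17_KO inside the range of the controls (log2 fold change -0.06).

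**Figure D3:**
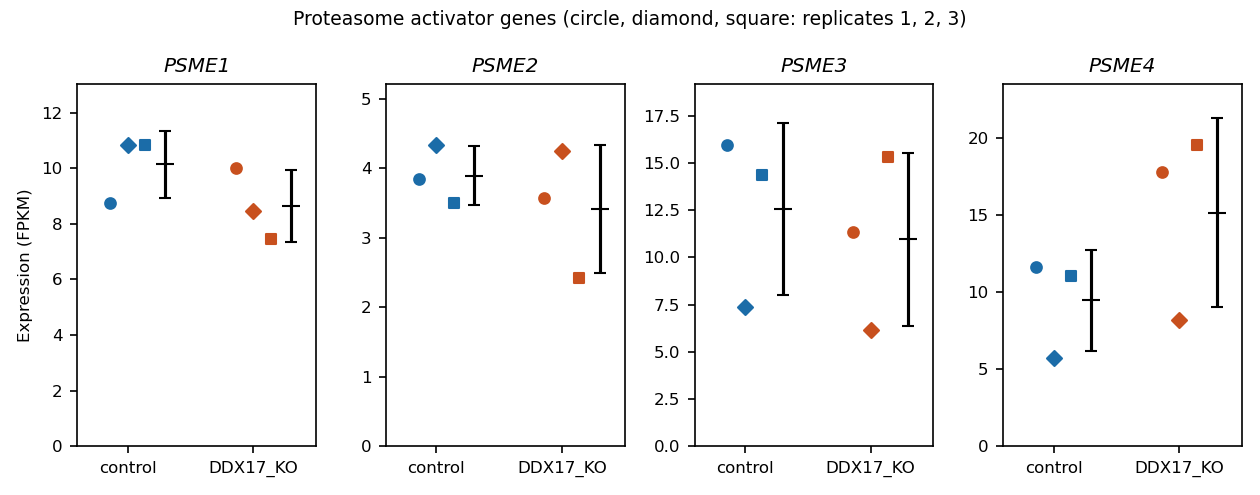
FPKM of the 4 proteasome activator genes in each library, with the mean and SD of each group (n = 3) as a bar beside the points. PSME3 and PSME4 are lowest in replicate 2 of both groups, and PSME4 is higher in DDX17_KO than in the control of the same number in all 3 pairs.

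The libraries numbered 2 stood apart from the others of their group in many members. Compared with the mean of replicates 1 and 3 of its group on the log2(FPKM + 1) scale, replicate 2 was higher in both groups in 28 of 44 members and lower in both in 10. Over all tested genes with a known GC content these shares were 40.0% and 34.1%, against 63.6% and 22.7% in the members. Across members the deviation went with the GC content of the longest transcript, with a Spearman's rho of 0.676 in control replicate 2 and 0.504 in DDX17_KO replicate 2, and the members' GC content ran from 32.0% in PSMD14 to 60.1% in PSMB10. Over all tested genes rho was 0.584 and 0.533. The log2 fold change itself had a rho of -0.27 with GC content across members and -0.509 over all tested genes. These are descriptions across genes of the same libraries, which are not independent.

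**Figure D4:**
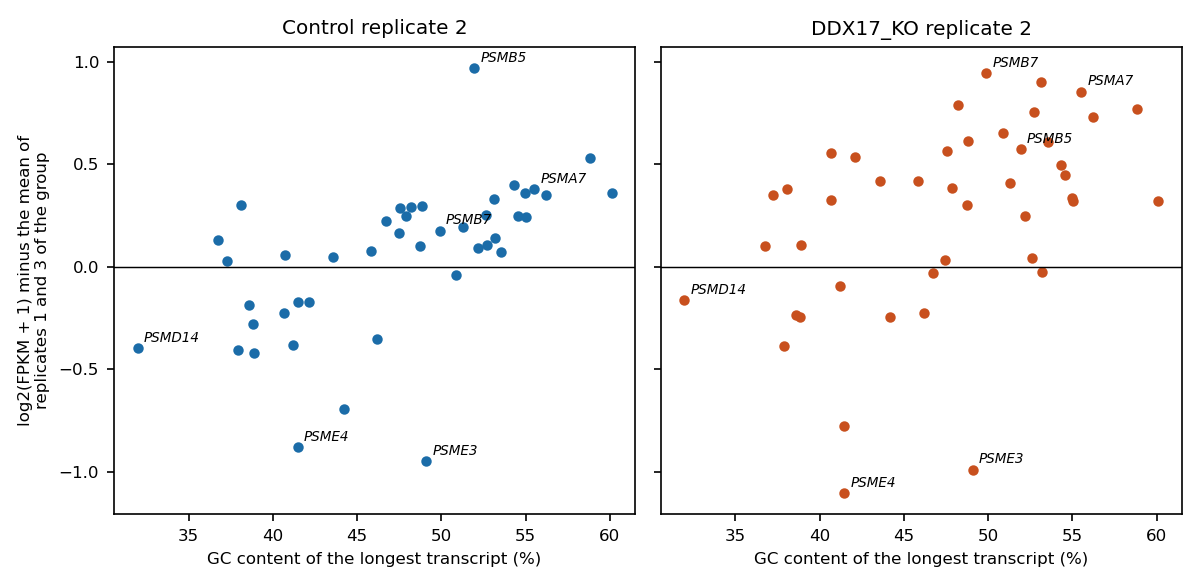
Deviation of replicate 2 from the mean of replicates 1 and 3 of its group, on the log2(FPKM + 1) scale, against the GC content of the longest transcript, for the 44 tested proteasome genes. PSME3 and PSME4 lie lowest in both panels and most members with a GC content above 50% lie above 0 (rho 0.676 and 0.504).

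Within the pairs of equal number, the lower FPKM in DDX17_KO, as listed and not scaled to library totals, came from replicates 1 and 3. No label says that libraries of equal number belong together. DDX17_KO was below control in 34 of 44 members for replicate 1, in 22 for replicate 2 and in 31 for replicate 3, against 52.2%, 47.3% and 52.3% of all tested genes. The median differences were -0.25, 0.01 and -0.18 on the log2 scale. As a share of all FPKM in a library, the members were lower in DDX17_KO replicates 1 and 2 instead. These had 0.28% and 0.278%, against 0.318% in both controls of the same number. DDX17_KO replicate 3 was higher on that scale, at 0.311% against 0.301%. In all 3 pairs, 17 members were below control, against 27.5% of all tested genes, and 6 were above, against 26.2%: PSMB3, PSMC6, PSMD1, PSMD6, PSMD14 and PSME4. After each library was corrected for transcript GC content and length, 28 of 44 members lay below 0, against 48.7% of all genes, and the median was -0.05, against 0.01 over all of them. With a block for the replicate number 0 members passed the adjusted threshold, against 0.0256% of all genes, and 2 had an unadjusted p under 0.05, against 28.6%. Without DDX17_KO replicate 2, 8 members were lower and 1 higher at an unadjusted p under 0.05, against 19.1% and 16.6% of all tested genes, and 0 passed the adjusted threshold by limma, against 3.66%.

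Summed over the 48 members, the proteasome genes had 899, 1011 and 924 FPKM in control replicates 1, 2 and 3 and 739, 1027 and 817 FPKM in DDX17_KO. The group sums were 945 ± 58.8 and 861 ± 149 FPKM (n = 3 a group, SD) and overlapped through DDX17_KO replicate 2, the highest library. As a share of all FPKM in a library, the members took 0.318%, 0.318% and 0.301% in controls and 0.28%, 0.278% and 0.311% in DDX17_KO. Here DDX17_KO replicate 2 was the lowest. Its total over all rows was the highest, 369200 FPKM, against 262800 to 318400 FPKM in the other libraries. Dividing the sum of the 19S subunits, chaperones left out, by that of the 20S rings gave 0.999, 0.883 and 0.961 in the controls and 1.06, 0.899 and 1.07 in DDX17_KO, where replicate 2 was the lowest of each group. The groups overlapped, and DDX17_KO was above the control of the same number in all 3 pairs.

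Genes that work with the proteasome were measured beside the members. Of 34 listed partners 0 were called by limma, 18 lay below 0 and 16 above, with a median log2 fold change of -0.04. NFE2L1, the transcription factor that raises subunit genes when the proteasome is short, had 9.96, 11.5 and 10.1 FPKM in the controls and 6.94, 14.8 and 11.5 FPKM in DDX17_KO. The lowest and the highest values were both in DDX17_KO (log2 fold change 0.02, limma adjusted p 0.9751). POMP, the maturation factor of the core, had 38.3, 41.3 and 39.5 FPKM in the controls and 39.4, 48.8 and 45.0 FPKM in DDX17_KO. ADRM1, a ubiquitin receptor of the 19S particle, had 48.9, 68.4 and 55.2 FPKM in the controls and 36.04, 68.1 and 35.7 FPKM in DDX17_KO. Both overlapped between the groups. USP14, a deubiquitinase bound to the particle, had 12.5, 9.01 and 12.9 FPKM in the controls and 18.1, 10.2 and 18.5 FPKM in DDX17_KO. Like PSME4 it was lowest in replicate 2 of both groups. Without both libraries numbered 2 the log2 fold change of USP14 was 0.49 with a limma adjusted p of 0.0468. That fit called 5.51% of all tested genes higher. The groups did not overlap in 5 partners, 3 lower and 2 higher, where 12.6% and 8.09% of all tested genes were so: UBA1, the main ubiquitin-activating enzyme, UBE3C, a ubiquitin ligase of the proteasome, and NLRC5, an activator of antigen presentation genes, were lower, and the small 19S subunit SEM1 and the glycanase NGLY1 were higher. UBA1 had 156, 201 and 164 FPKM in the controls and 127, 153 and 111 FPKM in DDX17_KO (log2 fold change -0.41, limma adjusted p 0.391). UBE3C had 15.8, 16.4 and 15.3 FPKM against 12.3, 9.42 and 12.2 FPKM (log2 fold change -0.46, limma adjusted p 0.369). NLRC5 had 1.15, 1.39 and 1.08 FPKM against 0.733, 0.657 and 0.969 FPKM (log2 fold change -0.30, limma adjusted p 0.405). SEM1 had 0.917, 0.988 and 0.973 FPKM against 1.14, 1.3 and 1.15 FPKM (log2 fold change 0.16, limma adjusted p 0.58). NGLY1 had 2.69, 1.74 and 2.85 FPKM against 3.65, 3.07 and 3.17 FPKM (log2 fold change 0.34, limma adjusted p 0.4185).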

How the data were processed

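Total RNA of 6 MHCC97H libraries was sequenced, and samples were grouped and numbered by their titles. The deposited table gives FPKM for each gene, as the authors computed them. Tools named in the submitters' processing notes are CASAVA 1.8, HISAT2, StringTie and edgeR, with hg38 as the build and no roles. The sources used here do not give the annotation, the strand setting or filters. GENCODE release 29, in which all 48 members had the same locus, gave gene types, transcript lengths and GC content. Depth was estimated from the steps of low FPKM values in genes with 1 transcript: 98.7% to 99.7% of values up to 20 fragments lay within 0.05 of a whole number.

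The test was limma 3.58.1 in R 4.3.3, two-sided, on log2(FPKM + 1), trended and without a replicate block, over the 15620 genes averaging 0.5 FPKM or more, adjusted by Benjamini-Hochberg over all of them. Fold changes on this scale understate the change of low genes. Python 3.11.15 and pandas 2.3.3 handled tables. The fit was tested on simulated data. The members and lists were chosen with earlier results of these data known.

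Deviations from the group means correlated across genes at 0.3, 0.546 and 0.214 between libraries of equal number, each over 0.1. Libraries of equal number were therefore set side by side as pairs. No label gives this pairing, and control replicate 1 correlated with DDX17_KO replicate 3 at 0.329 as well. Across the proteasome members the values were 0.383, 0.758 and 0.354 for equal numbers. They were 0.598 for control replicate 1 with DDX17_KO replicate 3 and 0.524 for control replicate 3 with DDX17_KO replicate 1. Deviations cancel out within a group, so agreement of the libraries numbered 2 raises the values among the others. The correlations cannot decide how replicates 1 and 3 pair. Named were the most abundant member of each class, members whose groups did not overlap, the 3 largest changes per direction at 2 FPKM or more, the catalytic beta genes and their induced counterparts, PSMD4, PSMD14, PSME1 and PSME2; other members are given by levels. Of the partners, NFE2L1, POMP, ADRM1, USP14, SEM1 and those without overlap were named. Alternatives were a replicate block, pseudocounts of 0.1 and 0.01, 2 other scalings, 2 filters, 2 limma settings, coding genes only, a GC and length correction with and without the block, each library left out and both libraries numbered 2 left out. Scaling each library to a total of 1000000 was added after seeing the data. Promoter windows came from RefSeq on GRCh38.p14.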

Additional observations from a re-analysis of the deposited data

How the results depend on the processing

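No proteasome gene was called in 19 of 20 alternatives by limma, and 1, PSME4, was called without both libraries numbered 2, at a log2 fold change of 0.67. The replicate block gave 4 called genes and 0 members and changed no call of a named gene. The members' median stayed below 0 in every alternative, from -0.28 without DDX17_KO replicate 2 to -0.05 with the GC and length correction; that of the 20S genes ran from -0.33 to -0.02. Over all genes, 6 were called with every library. The count was 3 without a filter, 11 with the GC and length correction, 1376 without both libraries numbered 2, and from 3 to 572 with 1 library left out: 572 without DDX17_KO replicate 2 and 3 without each control or DDX17_KO replicate 3. DDX17 lay between -1.76 and -1.04 with 1 library left out. It passed at -1.04 (adjusted p 0.0334) without DDX17_KO replicate 2 and at -1.08 (adjusted p 0.0349) without both libraries numbered 2, with an adjusted p up to 0.79 elsewhere. Of 30 named genes, 18 kept their sign and 12 did not. With the GC and length correction, with or without the block, the log2 fold change turned to 0.0209 for PSMB10, 0.0321 for PSMB6 and PSMD3, 0.0998 for PSMC4, 0.0326 for PSME2, -0.0502 for PSMD14 and -0.0513 for POMP. Leaving out 1 library gave -0.412 to 0.101 for PSMB5 (highest without control replicate 2), -0.291 to 0.0193 for PSMB6 (DDX17_KO replicate 1), -0.461 to 0.0394 for PSMB7 (DDX17_KO replicate 3), -0.184 to 0.0267 for PSMD5 (control replicate 3), -0.304 to 0.00484 for PSME2 (DDX17_KO replicate 3), -0.238 to 0.0708 for PSMF1 (control replicate 3) and -0.204 to 0.294 for NFE2L1, which was -0.144 without both libraries numbered 2. USP14 passed in that last setting. PSME3, outside the naming rule, was -0.198 with all libraries and 0.131 without DDX17_KO replicate 2. The causes were not tested, and the low number of libraries limits the precision.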

Other observations

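Antisense transcripts named after proteasome genes were also in the table, 5 in all, of which PSMA3-AS1 and PSMD6-AS2 had a mean of at least 1 FPKM. PSMA3-AS1 had 1.73, 1.39 and 1.67 FPKM in control replicates 1, 2 and 3 and 3.05, 1.87 and 3.20 FPKM in DDX17_KO, above every control, while PSMA3 itself was below every control. PSMD6-AS2 had 0.495, 0.176 and 0.448 FPKM in the controls and 2.41, 0.304 and 2.43 FPKM in DDX17_KO, where replicate 2 lay among the controls. PSMD6, on the opposite strand, had 4.40, 4.01 and 5.03 FPKM in the controls and 5.27, 4.28 and 5.15 FPKM in DDX17_KO. Fragments of such pairs cannot be separated with certainty, since no source used here states that counting used strand.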
